A study of Drosophila melanogaster with 18 samples.

Results

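The comparison of the sexes within fru P1 TRAP set 5 male TRAP libraries (replicates 1, 2, 3, 5 and 6) against 4 female TRAP libraries (replicates 2, 3, 4 and 5), 9 of the 18 libraries of the series. TRAP, translating ribosome affinity purification, pulls down ribosomes that carry a GFP-tagged subunit, so that the mRNA they hold can be counted. The tag was the ribosomal protein RpL10A under UAS control, and Gal4 driven from the fru P1 promoter switched it on. Both sexes carried the same alleles: w on the X, P[w+mC, UAS-Gal4] over P[w+mC, UAS-GFP::RpL10A] on the second chromosome, and 1 copy of fru P1-Gal4, so the sexes differed by w/w against w/Y. Each library came from a pool of about 1000 whole pupae that had been separated by sex and held at 25 °C until 48 hr after puparium formation (APF), and the other 9 libraries (male total and female total) held total mRNA of the same lysates. A wild-type or driver-free pull-down was not analysed here, so the background of the purification can only be read from total mRNA. The tables held 87508 exon records of annotated genes. Records of a gene can overlap each other, and 2573 repeated the coordinates of an earlier record of the same gene. A record was kept where it had over 2 CPM (counts scaled to a library of 1000000) in every library of at least 1 sex, which left 30361 records of 10532 genes. Of these, 21586 records passed in both sexes, 5503 passed through the male libraries alone and 3272 through the female libraries alone. Records of the last 2 kinds entered because they were high in 1 sex, so they are described by their values and their counts show nothing about direction.

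Sex in Drosophila is set by a cascade of alternative splicing. In females Sxl protein directs the splicing of tra, and Tra with Tra2 then directs the splicing of dsx and of the fru transcripts that start at the P1 promoter. Male P1 transcripts encode the Fru M zinc-finger factors, which are needed for courtship, whereas female P1 transcripts keep a stretch that interrupts the reading frame. At mid-pupal life the adult nervous system is being wired, and the male pupa also holds a growing testis whose germ cells transcribe a large set of genes used in no other tissue.

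The male TRAP libraries held 28706315 to 49642508 counts and the female TRAP libraries 34057519 to 67491630. The label of the purification was checked against 18 pan-neuronal genes. Their summed level was 8451 to 15270 RPM (reads per 1000000 counted) in the TRAP libraries and 2135 to 4909 RPM in total mRNA, so every TRAP library lay above every total library. A list of 10 tested fat body and yolk genes was also higher in TRAP, at 4082 to 24000 RPM against 1201 to 2146 RPM. Sperm tail genes summed to 9628 to 27130 RPM in male TRAP and 25720 to 30410 RPM in male total mRNA, with 4 of the 5 male TRAP libraries below every male total library. Male TRAP replicate 1 held the most sperm tail RNA and the least pan-neuronal, muscle and fat body RNA of the male TRAP libraries. Female TRAP replicate 2 stood apart for neuronal genes, with elav at 663 RPM where the other 3 had 261 to 329 RPM. In the female TRAP libraries sperm tail genes summed to 18.8 to 191 RPM. Values obtained without single libraries stand beside several of the results below. In bulk libraries, fewer cells of a type and less RNA per cell cannot be told apart.

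Records of dsx and Sxl differed between the sexes in both directions within each gene. In dsx, the transcription factor gene at the end of the cascade, a long record (3R, 7931168 to 7935653, coding sequence and 3′ UTR) had 0.697, 1.17, 1.11, 0.506 and 0.949 RPM in male TRAP replicates 1, 2, 3, 5 and 6. It had 15.3, 12.6, 15.0 and 14.8 RPM in female TRAP replicates 2, 3, 4 and 5. The groups lay far apart, although this record passed the filter through the females alone. The next dsx record along the transcript (3R, 7930171 to 7930687, coding sequence and 3′ UTR) was too low to be tested across all records. It had 1.29, 3.87, 3.14, 2.34 and 3.61 RPM in the male libraries and 0.760, 0.593, 0.910 and 0.785 RPM in the female libraries in the same order. Every male value lay above every female value (exact permutation test, two-sided p = 0.0159). The last dsx record (3R, 7924323 to 7925360) is uncertain because it overlaps lds, and it was 1.11 ± 0.21 higher in males on the log2 scale (SE, edgeR exact test, adjusted p = 1.71e-05). Its level was 6.62 to 17.0 RPM in males and 5.68 to 7.08 RPM in females, with male TRAP replicate 1 inside the female range.

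Sxl, the RNA-binding switch gene on the X, changed in opposite directions along its length. Its longest 3′ record (X, 7074550 to 7079367) had 27.1, 44.1, 37.2, 33.4 and 43.7 RPM in male TRAP and 197, 126.2, 158 and 143 RPM in female TRAP. No libraries of the sexes overlapped, and the record was lower in males by a log2 fold change of -1.94 ± 0.15 (adjusted p = 9.11e-25). The record that ends at an earlier 3′ end (X, 7082921 to 7084819) had 41.0, 79.4, 65.6, 62.3 and 100.5 RPM in males and 49.1, 26.6, 54.1 and 37.8 RPM in females, and rose in males by 0.86 ± 0.27 (adjusted p = 0.00443) with 1 male library inside the female range. A short Sxl record of 190 bases (X, 7088578 to 7088767), below the filter, had 1.85, 1.73, 1.44, 0.639 and 1.97 RPM in males and 0.916, 0.182, 0.499 and 0.563 RPM in females (exact permutation p = 0.0238, two-sided). Among the 11 tested Sxl records with distinct coordinates, 5 were called higher in females and 2 higher in males. These are not independent exons. Most of those called in females share the end at 7079367 and cover common sequence. Both called in males share the end at 7084819.

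**Figure D1:**
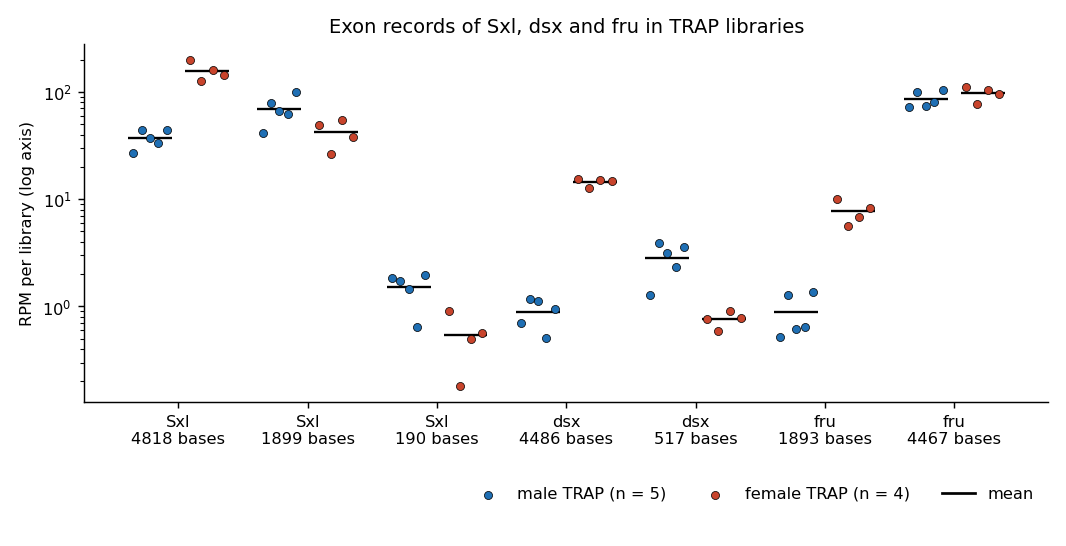
RPM (log axis) of 7 exon records of Sxl, dsx and fru in each TRAP library, named by gene and record length in bases; points are libraries and bars are means over 5 male and 4 female libraries. The 4486-base dsx record and the 1893-base fru record sat above 5 RPM in every female library and below 2 RPM in every male library, and the 517-base dsx record was higher in all males.

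Most fru records did not pass the test between the sexes. The most distal 5′ record tested (3R, 18513451 to 18515343, 5′ UTR and coding sequence) passed through the females alone, with 0.523, 1.29, 0.622, 0.639 and 1.35 RPM in males and 10.03, 5.68, 6.78 and 8.25 RPM in females. Of the 11 tested fru records with distinct coordinates, 1 that passed in both sexes was called, 18414273 to 18417300, higher in males by 0.35 ± 0.17 (adjusted p = 0.152) and near the threshold of 0.2. It lost the call with RLE size factors, another scaling (adjusted p = 0.281). Without male TRAP replicate 1, 2, 6 or female TRAP replicate 3, 5 it had an adjusted p of 0.244, 0.344, 0.243, 0.384 and 0.350. The record 18431233 to 18432034 passed through the males alone, with 3.17, 2.76, 2.52, 3.01 and 3.87 RPM in males and 2.06, 1.78, 3.70 and 2.43 RPM in females, which overlap. Summed over the gene, fru had 253, 419, 299.9, 308 and 468 RPM in males and 410.5, 283, 437 and 376 RPM in females, overlapping ranges that did not pass the test (-0.17 ± 0.20, quasi-likelihood test, adjusted p = 0.471). For tra, none of 3 tested records was called. For tra2, all 3 were called higher in males, by 0.40 to 0.54, though the gene sum was not (0.18 ± 0.09, adjusted p = 0.216), unless male TRAP replicate 1, 5, 6 or female TRAP replicate 2 was left out (0.107, 0.191, 0.050 and 0.133) or RLE size factors were used (0.0378). The scales of the record and gene tests differ, with a median log2 fold change of 0.05 over all tested records and -0.14 over all gene sums. Of 11 tested genes of the sex hierarchy, 7 gene sums were called higher in females and none higher in males (4 and 1 without male TRAP replicate 6). Of the 9 that passed in both sexes it was 5, against 50.5% of all genes that did. One tra2 record overlaps Blos1 and is uncertain. The tra2 records 14602504 to 14602876 and 14602504 to 14602905 cover nearly the same sequence and are not independent.

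The dosage compensation RNAs followed the sex of the pupae. lncRNA:roX1, which coats the male X, had summed counts of 1074, 2219, 1782, 1754 and 2547 RPM in male TRAP and 257, 61.4, 44.2 and 67.5 RPM in female TRAP. Every male library was above every female library, and the highest female value was in replicate 2, the library that also stood apart for elav. lncRNA:roX2, which passed through the males alone, had 25.8, 48.4, 48.3, 41.4 and 49.0 RPM in males and 0.359 to 1.09 RPM in females. Both RNAs are non-coding, and in male total mRNA roX1 was at 291 RPM and roX2 at 36.9 RPM. Of 9 tested dosage compensation genes, 3 were called higher in males, 1 higher in females and 5 neither way. Of the protein subunits of the male-specific complex, msl-3 was higher in males by 0.54 ± 0.10 (quasi-likelihood test, adjusted p = 0.00441) and msl-1 higher in females, -0.29 ± 0.12 (adjusted p = 0.0661). By the same test msl-2 was not called (-0.13 ± 0.21, adjusted p = 0.569), and its libraries overlapped between the sexes. The msl-1 call was lost without male TRAP replicate 6 (adjusted p = 0.497), without female TRAP replicate 2 (adjusted p = 0.201) and under the RLE scaling (adjusted p = 0.231).

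Over all tested records, 10149 (33.4%) were called higher in males and 6073 (20%) higher in females by the edgeR exact test at an adjusted p under 0.2, the threshold of the study's methods. In the records that passed in both sexes the split under this scaling was close to even, with 4804 (22.3%) higher in males and 4674 (21.7%) higher in females. By gene, 4469 of 10532 genes (42.4%) had a record higher in males, 2763 (26.2%) had one higher in females, and 105 had both. With only library totals as scaling, 3968 genes were called toward males and 3819 toward females, and with each coordinate counted once 3817 and 4589. The balance of directions over all genes therefore changed with the scaling and with the treatment of repeated coordinates. Of 8054 genes with a record passing in both sexes, 2334 (29%) had one called higher in males and 2384 (29.6%) one called higher in females. The 105 genes with both directions became 55 without female TRAP replicate 3 and 170 when the replicate number was a block. The block fit kept only the replicates numbered alike in both sexes and used the quasi-likelihood test. Its changes therefore cannot be credited to the block alone. Libraries of the sexes did not overlap in 11965 records (39.4%), and in 6188 (28.7%) of those that passed in both sexes. For genes with a record that passed in both sexes, the near balance of 2334 and 2384 became 1980 and 3132 with RLE size factors, 1821 and 3431 with library totals, 2190 and 3597 with DESeq2 and 2123 and 3018 with the replicate number as a block. Of these genes, 804 had one at least 2-fold higher in males and 159 had one at least 2-fold higher in females.

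Counts summed over each gene gave 3828 of 11603 genes (33%) higher in males and 4872 (42%) higher in females by edgeR's quasi-likelihood test at the same threshold. Among the 9096 genes that passed in both sexes, 1693 (18.6%) were higher in males and 4592 (50.5%) in females, and their median log2 fold change was -0.25. That median moved to -0.14 with RLE size factors and to -0.08 with TMM factors taken from those genes alone, which gave 2015 and 3599 genes and 2256 and 2944 genes. Without male TRAP replicate 6 the counts were 2237 and 2760. The lists below are to be read against this median and against the 50.5% of genes called higher in females.

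Among records that passed in both sexes, the largest male excess reached 6.76 on the log2 scale. It belonged to a non-coding gene known only by its identifier, FBgn0267727 (2L, 10057821 to 10058134), with 998, 352, 254, 591 and 283 RPM in males and 6.46, 5.59, 4.58 and 4.33 RPM in females. fest, which acts in spermatocytes, had 416, 183, 191, 292 and 179 RPM in males and 3.24, 5.04, 5.17 and 3.13 RPM in females, and was higher by 6.10 ± 0.35 (exact test, adjusted p = 3.42e-38). Hsc70-2, a heat shock cognate protein, had 311, 145, 140.3, 219.5 and 114 RPM against 4.42, 4.90, 3.11 and 2.697 RPM. In all 3 the male TRAP replicate 1 was highest and replicate 5 second, the order in which those libraries held sperm tail RNA. The remaining 9 genes named by size (CG7069, CG31407, Pof, CG13337, CG4546, CG6661, CG4631, CG30271 and CG1137) were higher in males by 4.95 to 6.24 on the log2 scale. The records of Pof, CG13337, CG4546, CG6661 and CG30271 overlap another gene and are uncertain.

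Some 2045 genes had tested records through the male libraries alone, and 430 through the female libraries alone. The 8 most abundant of the first kind were dj, S-Lap7, loopin-1, S-Lap4, CG3213, CG33340, CG4836 and CG31538. dj (don juan), a protein of sperm tail mitochondria, had 2129, 539, 409, 1111 and 349 RPM in males and 3.08, 6.68, 3.67 and 0.104 RPM in females. S-Lap7, a leucyl aminopeptidase family member of sperm, had 1574, 686, 701, 1028 and 568 RPM in males and 5.50, 11.2, 4.49 and 0.133 RPM in females. In these 8 records female TRAP replicate 3 was the highest female library (6.68 to 11.2 RPM) and replicate 5 the lowest (0.0741 to 0.696 RPM). The CG33340 record overlaps other genes and is uncertain. The 8 most abundant genes of the second kind were much lower. CG34205, CG13962 and CG13231 had 13.3 to 34.5 RPM in females and 1.01 to 9.37 RPM in males. CG16713, CG3348, Cyp6g1, a cytochrome P450 of insecticide resistance, and NimB3, a Nimrod family member, had 5.99 to 17.8 RPM in females and 0.871 to 7.08 RPM in males. The records of CG34205, CG3348 and Cyp6g1 overlap another gene and are uncertain. The antisense RNA asRNA:CR44137 shows what the filter alone can do. It passed through the females only because male TRAP replicate 1 had 1.92 RPM, while the other 4 males (11.9 to 16.4 RPM) overlapped the females (9.99 to 17.6 RPM).

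Most members of the male germline lists passed through the males alone, so their counts are set by the filter and are given as a description. All 24 sperm tail and mitochondria genes were called higher in males, 22 of them through the males alone. betaTub85D, the testis beta tubulin, had 675, 391, 454, 571 and 364 RPM in male TRAP and 4.36, 7.38, 4.53 and 1.77 RPM in female TRAP. Tektin-C, an axonemal microtubule protein, had 65.3, 45.3, 46.8, 61.9 and 40.3 RPM in males and 6.37, 7.24, 5.43 and 7.77 RPM in females (2.90 ± 0.19, adjusted p = 1.16e-06), and passed in both sexes. All 10 tested meiotic arrest regulators, the transcription factors that switch on spermatocyte genes, were called, 8 of them through the males alone. In this list aly had 8.38, 4.28, 5.51, 5.22 and 3.96 RPM in males and was at 0 in 3 of 4 female libraries, whereas topi had 17.3 to 35.7 RPM in males and 1.38 to 2.22 RPM in females.

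The testis-specific proteasome subunits and the sperm chromatin proteins were also male-high. All 11 tested proteasome subunits were called higher in males, 10 through the males alone, among them Prosbeta2R2 with 13.5 to 23.5 RPM in males and 0.136 to 0.276 RPM in females. Of 5 tested members of the sperm chromatin list, 4 were called, each through the males alone, and thw was not (30.8 to 60.3 against 45.8 to 54.3 RPM). The place of thw in this list is uncertain. It made up most of the list sum in female TRAP, which was 47.2 to 68.7 RPM. Mst77F, a histone-like protein of sperm nuclei, had 669, 442, 492, 774 and 539 RPM in males and 6.85, 11.3, 5.97 and 0.772 RPM in females. All 9 tested Y-linked fertility genes passed through the males alone, kl-2 with 5.94 to 8.38 RPM in males and 0.0449 to 0.204 RPM in females. The early germline list behaved otherwise, with 2 of 6 tested genes higher in males and 4 higher in females around a median of -0.55, of which 1 and 3 passed in both sexes. bgcn, which acts with bam in germline differentiation, was male-high (13.7 to 24.2 against 0.494 to 1.499 RPM), and AGO3 of the piRNA pathway rose in males by 0.90 ± 0.12 (adjusted p = 8.69e-04). grk, the oocyte ligand gurken, was higher in females, -0.75 ± 0.08 (adjusted p = 2.41e-04), and piwi, which passed through the females alone, had 2.61 to 3.14 RPM in females and 0.886 to 1.77 RPM in males.

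**Figure D2:**
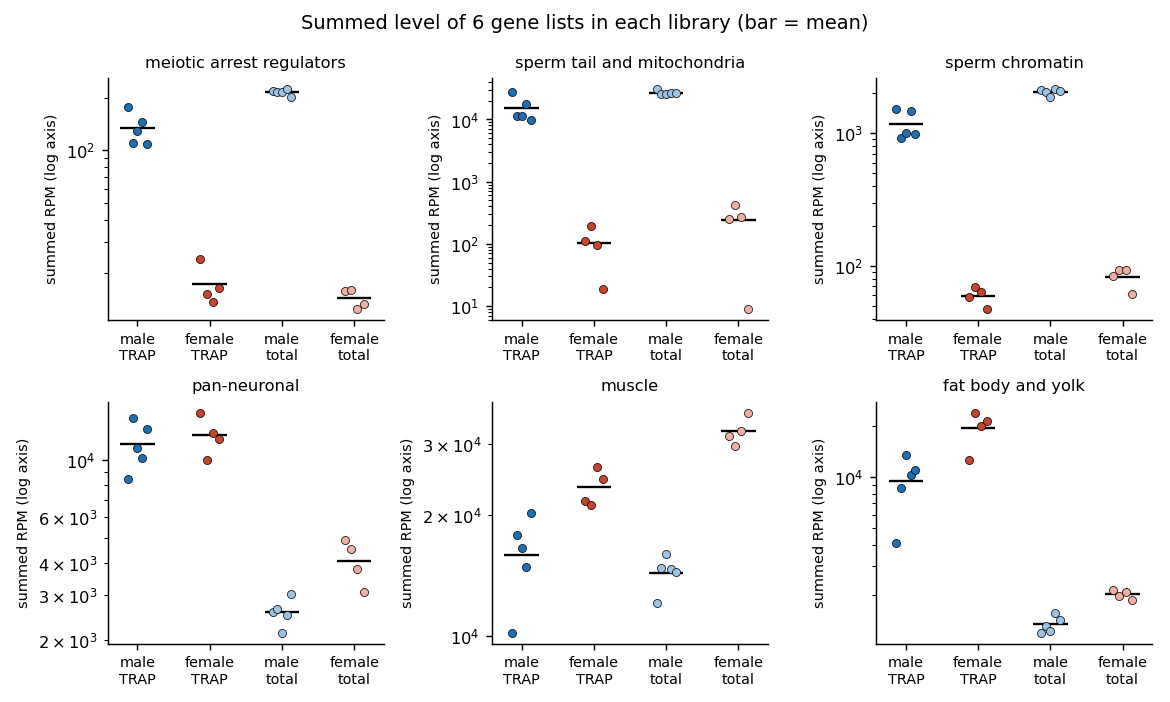
Summed RPM (log axis) of 6 gene lists in each of the 18 libraries, by sex and fraction; points are libraries and bars are means. The 3 germline lists were far above the female libraries in both male fractions, while the pan-neuronal and the fat body lists were higher in TRAP than in total mRNA in both sexes. In the female libraries most of the sperm chromatin sum came from thw.

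Paralogs of housekeeping genes stood apart inside the ribosomal list. Of 91 tested cytoplasmic ribosomal protein genes, 82 were called higher in females with a list median of -0.56, and the 7 called higher in males included RpS19b, RpL22-like, RpL10Aa and RpS28-like, each a paralog of a housekeeping subunit and each through the males alone. Of the 85 that passed in both sexes, 82 were called higher in females and 1 higher in males. In total mRNA, from the fit over all 18 libraries, the list median was -1.15, against -0.63 over all genes tested. RpL10Aa had 86.1, 45.2, 48.5, 70.8 and 39.6 RPM in males and 0.477, 0.621, 0.583 and 0.159 RPM in females. RpL10Ab, the gene whose protein carries the tag, was higher in females by -0.66 ± 0.17 (adjusted p = 0.0078). Called in females were 67 ribosomal genes with RLE size factors, 52 with the TMM factors from genes passing in both sexes and 52 without male TRAP replicate 6. RpL28 was not called (-0.34 ± 0.22, adjusted p = 0.226) but was without male TRAP replicate 1 (-0.59, adjusted p = 0.00429) and with the replicate number as a block (-0.54, adjusted p = 0.0629). The block fit also left out male TRAP replicate 1.

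In a list of neuronal surface genes dpr17 stood apart. The dpr and DIP proteins pair on the surfaces of neurons, and 18 of 31 tested genes were called higher in females and 3 higher in males, around a median of -0.33. All 31 passed in both sexes, where 50.5% of all genes were called higher in females and 18.6% higher in males, with a median of -0.25. dpr17 had 397, 206, 203, 309 and 202 RPM in male TRAP and 26.6, 22.1, 30.4 and 25.1 RPM in female TRAP, a log2 fold change of 3.29 ± 0.25 (adjusted p = 2.66e-06). Its male libraries again ranked replicate 1 and then replicate 5 highest, and its level was higher still in male total mRNA, at 410.5 ± 18.8 RPM (SD, n = 5), against 20.1 ± 2.38 RPM (SD, n = 4) in female total. DIP-epsilon was higher in females by -0.53 ± 0.13 (adjusted p = 0.0089), with 20.6 to 35.5 RPM in males and 39.4 to 44.3 RPM in females. DIP-alpha, the most abundant uncalled member, had 272 RPM in female TRAP replicate 2 and 42.5 to 61.3 RPM in the other 3, and its fold change turned from -0.63 (adjusted p = 0.313) to 0.38 (adjusted p = 0.293) without that library, and was called without female TRAP replicate 4 (-0.89, adjusted p = 0.17). Of the 18 calls in females, 12 were counted under the TMM factors from genes passing in both sexes and 5 without male TRAP replicate 6.

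Pan-neuronal genes had a median close to that of all genes passing in both sexes. Of 18 tested, 7 were called higher in females and 1 higher in males, with a median of -0.25, and without male TRAP replicate 6 there was 1 call in females. The call in males was lost without male TRAP replicate 1, 2, 3 or 5 or female TRAP replicate 3, 4 or 5. nrv3, a neuronal sodium pump subunit, had 817, 1339, 1068, 897 and 1040.0 RPM in males and 1939, 1196, 1234 and 1291 RPM in females (-0.52 ± 0.18, adjusted p = 0.0256). Of the other called members that were named, Snap25, Syn and nSyb of the synaptic vesicle machinery, all 3 lost the call without male TRAP replicate 6 (adjusted p = 0.306, 0.298 and 0.389). In the axon guidance list 29 of 52 genes, all passing in both sexes, were called higher in females and 1 higher in males. Its median of -0.27 lay close to the -0.25 of all genes passing in both sexes, of which 50.5% were called higher in females. In females 5 were called without male TRAP replicate 6, 17 without female TRAP replicate 2 and 12 under the TMM factors from genes passing in both sexes. The female calls included Lac, an adhesion protein of septate junctions (-0.69 ± 0.14, adjusted p = 0.00334). beat-IIIa, of the beaten path family, was the 1 called higher in males, with 31.1 to 44.0 RPM in males and 24.1 to 29.1 RPM in females, though 7 of its records overlap another gene.

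Among peptide and transmitter genes, Akh was higher in males. Of 25 tested genes, 17 were called higher in females and 4 higher in males around a median of -0.45 (12 and 3 of the 19 that passed in both sexes, where 50.5% and 18.6% of all genes were called). Akh, the adipokinetic hormone of the corpora cardiaca that mobilises stored energy, had 46.8, 77.9, 43.9, 22.9 and 30.8 RPM in its male TRAP record and 9.79, 8.26, 3.70 and 8.06 RPM in the female one (3L, 4141723 to 4142070). No libraries overlapped, and the record was 2.702 ± 0.40 higher in males (exact test, adjusted p = 4.29e-11). Dh44, a corticotropin-releasing-factor-like peptide, had 15.8, 9.08, 10.5, 13.6 and 8.32 RPM in males and 3.07, 3.52, 3.68 and 3.27 RPM in females (1.71 ± 0.20, adjusted p = 1.04e-04). Its sex difference was no smaller in total mRNA, at 14.5 RPM in males and 2.11 RPM in females. Gad1, which makes GABA, was higher in females (-0.94 ± 0.19, adjusted p = 9.42e-04), with 17.4 to 26.7 RPM in males and 30.7 to 55.9 RPM in females. Pdf, the peptide of the clock neurons, passed through the females alone at a low level, with 2.33 to 5.10 RPM in females and 1.09 to 2.26 RPM in males. Without male TRAP replicate 6, 8 genes of this list were called in females.

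Among transcription factors, the Hox genes and their cofactors split by gene. The list median of -0.01 turned positive under RLE (0.08) and under the TMM factors from genes passing in both sexes (0.14), and 2 genes were called higher in males and 4 higher in females (2 without male TRAP replicate 1, 5 or 6 or female TRAP replicate 2). Of the 7 that passed in both sexes, 1 was called higher in males and 4 higher in females. lab passed through the males alone, with 2.61 to 4.525 RPM in males and 1.27 to 1.69 RPM in females. abd-A, which patterns the abdomen, had 37.9, 41.2, 44.8, 35.3 and 47.7 RPM in males and 67.8, 62.4, 75.3 and 71.0 RPM in females (-0.81 ± 0.08, adjusted p = 1.05e-04). exd, a Hox cofactor, was also higher in females (-0.91 ± 0.20, adjusted p = 0.00171). Abd-B was called higher in males (0.32 ± 0.16, adjusted p = 0.119), a call that was lost without male TRAP replicate 2 (adjusted p = 0.24), female TRAP replicate 2 (adjusted p = 0.228) or female TRAP replicate 3 (adjusted p = 0.243). Of 11 BTB factors related to fru, ab rose in males by 0.57 ± 0.14 (adjusted p = 0.00622), bab2 and br were higher in females, and rib passed through the males alone with 7.95 to 13.3 RPM against 0.517 to 0.818 RPM. The median of this list, -0.16, was 0.02 under the TMM factors from genes passing in both sexes.

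**Figure D3:**
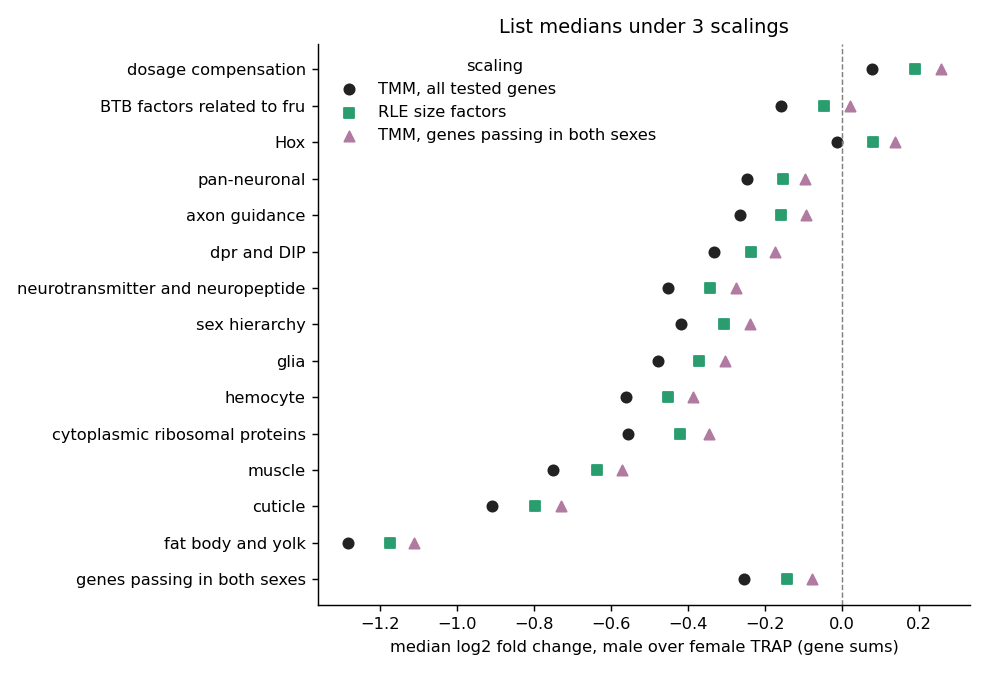
Median log2 fold change (male over female TRAP, gene sums) of 14 gene lists and of all genes passing in both sexes, under 3 scalings marked by symbol. The scaling moved all lists together by about the same amount as the genes passing in both sexes (-0.25, -0.14 and -0.08). Several lists lay below these genes under each scaling, the fat body, cuticle and muscle lists furthest.

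Among records that passed in both sexes the 12 largest female excesses lay between -1.86 and -2.76 on the log2 scale, well short of the male extremes. The 12 included 3 cuticle proteins, Cpr30F, Cpr30B and Cpr64Ac, the larval storage proteins Lsp1alpha and Lsp1beta, and Sxl. Cpr30B had 16.5, 7.21, 26.9, 4.61 and 21.9 RPM in males and 82.0, 114, 74.8 and 76.6 RPM in females (-2.38 ± 0.48, adjusted p = 7.32e-07). CG43218, of unknown function, was the least variable of them, with 11.2, 12.8, 14.4, 10.6 and 12.3 RPM in males and 46.9, 60.3, 47.0 and 50.9 RPM in females (-1.94 ± 0.11, adjusted p = 1.38e-31). Over the cuticle list, 37 of 51 tested genes were called higher in females and 3 higher in males, with a median of -0.91. In males 7 were called without male TRAP replicate 6 and under the TMM factors from genes passing in both sexes. Of the 44 cuticle genes that passed in both sexes, 34 were called higher in females and 1 higher in males. The cuticle median in total mRNA was -1.52, against -0.63 over all genes tested. Acp65Aa, an adult cuticle protein, had 20.8 to 39.6 RPM in males and 93.4 to 135 RPM in females (-1.81 ± 0.21, adjusted p = 2.09e-05), whereas Twdlalpha of the Tweedle family passed through the males alone (82.5 to 162 against 0.999 to 2.02 RPM). A Twdlalpha record overlaps another gene, so its sum is uncertain, and male TRAP replicates 1 and 5 were its highest libraries. Cpr76Bc was not called (0.23 ± 0.18, adjusted p = 0.291), but was without male TRAP replicate 1 (0.34, adjusted p = 0.0715) or 6 (0.42, adjusted p = 0.1257) and with the replicate number as a block (0.46, adjusted p = 0.102). The block fit also left out both of these libraries.

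All 10 tested fat body and yolk genes were called higher in females, with a median of -1.28, the lowest of all lists. Fbp2, a fat body protein, had 382, 1016, 1556, 1255 and 1297 RPM in male TRAP and 2309, 4294, 3293 and 3804 RPM in female TRAP (-1.73 ± 0.39, adjusted p = 0.00126). In total mRNA Fbp2 was at 29.4 RPM in males and 66.2 RPM in females, far below its level in TRAP in both sexes. Yp3, a yolk protein made by adult females, passed through the females alone and was at 8.08 to 14.3 RPM in females and 0.926 to 2.65 RPM in males. Muscle genes moved the same way, with 18 of 20 called higher in females (median -0.75) and none higher in males. The muscle median was lower still in total mRNA, at -1.545, where all genes tested had a median of -0.63. Mlp60A, a muscle LIM protein, had 698, 717, 904, 747 and 738 RPM in males and 1295, 1387, 1206 and 1308 RPM in females (-0.84 ± 0.07, adjusted p = 6.27e-05). sls, the giant titin-like protein, was not called, at 2034 to 6439 RPM in males and 3507 to 7183 RPM in females (adjusted p = 0.233), but was without male TRAP replicate 2 (adjusted p = 0.189) or female TRAP replicate 3 (adjusted p = 0.125).

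Of 11 tested glial genes, 9 were called higher in females (5 under the TMM factors from genes passing in both sexes) and 2 higher in males, with a median of -0.48. The glial median in total mRNA was -1.17, against -0.63 over all genes tested. Of the 9 that passed in both sexes, 8 were called higher in females, against 50.5% of all such genes. moody, a receptor of the blood-brain barrier, had 8.33 to 12.8 RPM in males and 14.9 to 16.5 RPM in females (-0.58 ± 0.10, adjusted p = 0.00259). The 2 exceptions were nrv2, with 136 to 166 RPM in males and 84.6 to 118 RPM in females, and gcm, the switch gene of glial fate, which passed through the males alone at 6.76 to 14.9 RPM and was at 38.2 RPM in male total mRNA. A gcm record overlaps another gene, so its sum is uncertain. In total mRNA nrv2 was at 342 RPM in males and 100.2 RPM in females. Of 8 tested hemocyte genes, 7 were called higher in females with a median of -0.56, including all 6 that passed in both sexes, and Hml (hemolectin) passed through the males alone with 3.27 to 5.46 RPM against 1.39 to 2.69 RPM. The hemocyte median in total mRNA was -1.27.

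Exon usage was tested within each gene, asking whether its records differed between the sexes by different amounts. By edgeR's gene-level test, 723 of 6662 genes (10.9%) were called, and 428 by the Simes test on the same records. On simulated counts the gene-level test made more false calls than its threshold allows. Its count may therefore be too high, and the gene-level adjusted p-values below too small. The Simes test was not run on simulated counts. When only records passing in both sexes entered, 401 genes were called. The 10 genes with the smallest p over all records were Imp, cnn, bru1, drn, rdgB, f-cup, Ald1, gish, Pka-R2 and yuri. Each had at least 1 record that passed through the males alone, so that order is a description. From records passing in both sexes the gene-level adjusted p was 7.35e-12 for Imp, 5.84e-18 for bru1, 6.63e-13 for Ald1, 2.31e-12 for gish and 0.0208 for rdgB. cnn, drn, f-cup and Pka-R2 were not called (adjusted p = 0.901 for cnn and 1 for the others), and yuri had 1 such record.

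Imp, an RNA-binding protein of stem cells, neurons and germ cells, differed between its 3′ and 5′ records. Its longest 3′ record (X, 10787869 to 10797437, overlapping lncRNA:CR45204) had 522, 625, 514, 580.0 and 649 RPM in males and 800.4, 500.0, 791 and 709 RPM in females and was not called. A 5′ record (X, 10813249 to 10814093) had 60.4, 53.5, 48.1, 57.3 and 58.7 RPM in males and 12.9, 6.64, 10.9 and 9.44 RPM in females, and rose in males by 2.64 ± 0.20. An exon in the 5′ UTR (X, 10821319 to 10821817) had 26.4, 20.97, 22.9, 26.1 and 24.3 RPM in males and 0.163 to 0.447 RPM in females. This record passed through the males alone, and male TRAP replicate 1 was the highest male library in both 5′ records. The same 5′ UTR record was at 20.3 RPM in male total and 0.139 RPM in female total mRNA.

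gish, a casein kinase I, was higher in males up to the middle of the gene and not beyond. Its 10 tested records with distinct coordinates from the start of the gene to position 16297345 rose in males by 1.79 to 2.22 on the log2 scale. The next record, 3R, 16297457 to 16297960, which holds coding sequence and 3′ UTR, had 109, 51.6, 50.2, 78.8 and 48.0 RPM in males and 0.827, 0.844, 0.323 and 0.163 RPM in females. The last record of the gene (3R, 16301823 to 16304768) had 53.1, 81.7, 81.5, 71.5 and 94.7 RPM in males and 96.7, 64.3, 82.5 and 79.2 RPM in females, with overlapping groups. In males these records ranked the libraries in opposite ways, with replicate 1 highest for the first and lowest for the second.

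bru1 (Bruno), a translational repressor, differed at both ends. Its first 5′ UTR record (2L, 12205843 to 12206130) had 44.2, 18.8, 16.1, 30.8 and 17.4 RPM in males and 0.0447 to 0.44 RPM in females, and a 3′ UTR record beyond the main 3′ end (2L, 12312526 to 12312795) had 113, 46.6, 36.4, 75.7 and 33.1 RPM in males and 2.79 to 3.84 RPM in females. Between them, the record 2L, 12310682 to 12312311 was not called (0.21 ± 0.20, adjusted p = 0.535). cnn (centrosomin), which builds the material around centrosomes, had 10 of its 12 tested records through the males alone, such as 2R, 13443240 to 13443816, with 67.5, 35.3, 35.8, 48.4 and 32.8 RPM in males and 0.252 to 0.707 RPM in females. Its last record (2R, 13439314 to 13440328) had 36.0 to 42.4 RPM in males and 32.3 to 37.2 RPM in females. Ald1, the glycolytic aldolase, showed both directions within 1 gene, with its longest 3′ record lower in males by -0.42 ± 0.09 (adjusted p = 0.0273) and a neighbouring exon (3R, 26255966 to 26256307) higher in males by 2.05 ± 0.24 (adjusted p = 3.69e-13). drn is uncertain because its male-high records overlap CG43675, and its call was lost when overlapping records were left out (adjusted p = 1).

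**Figure D4:**
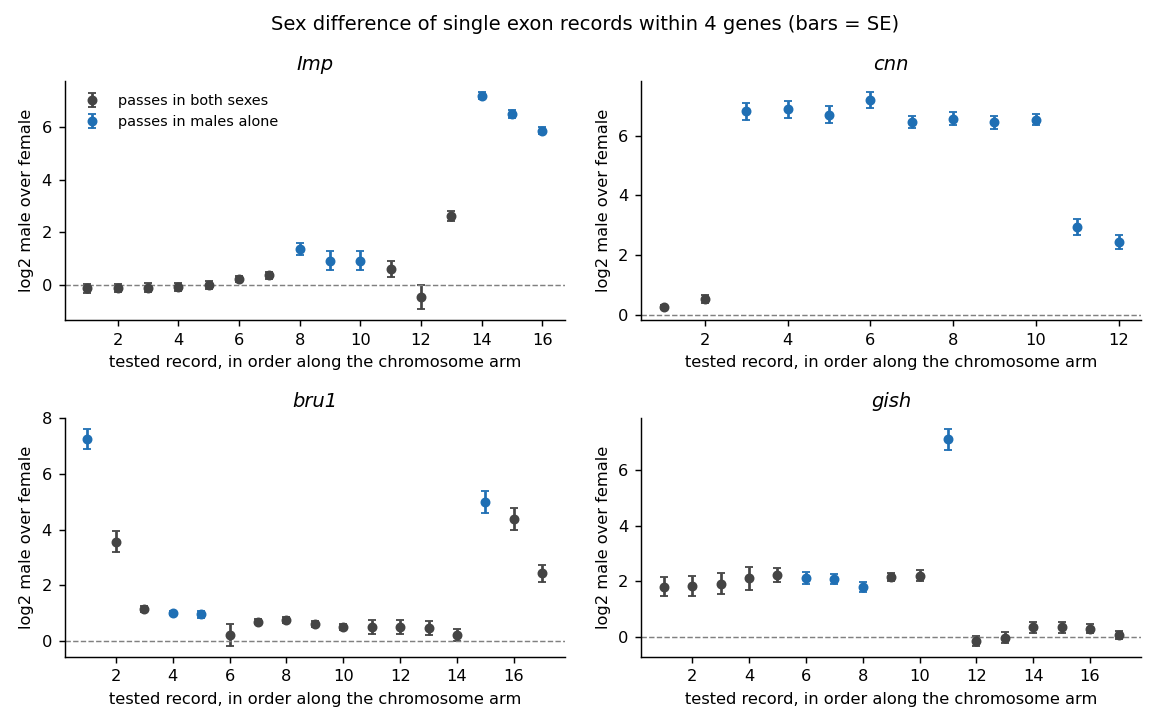
Log2 fold change (male over female TRAP) of each tested exon record of Imp, cnn, bru1 and gish in order along the chromosome arm, with SE bars; colour gives whether the record passed the filter in both sexes or in males alone. In each gene some records lay near 0 while others stood above 6 on the log2 scale.

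The sex difference in TRAP was also set against that in total mRNA of the same lysates, as an interaction over all 18 libraries, fitted without the pairing of TRAP and total libraries by lysate. The number of genes whose male value was relatively higher in TRAP, 6213 (53.5%) against 1185 (10.2%) for the female value, depended on the scaling: it was 1670 against 2372 with RLE size factors and 390 against 3243 with TMM factors taken within each fraction. With the lysate as a block it was 6680 against 1405. The 12 records named by the smallest p, among those called between the sexes in TRAP, kept their direction under each. Akh rose in male TRAP while in total mRNA it was 1.19 to 1.85 RPM in males and 2.93 to 3.59 RPM in females, an interaction of 3.93 ± 0.41 (quasi-likelihood test, adjusted p = 1.16e-05). CG14075, of unknown function, behaved alike, with 39.2, 62.4, 35.5, 18.5 and 22.4 RPM in male TRAP and 8.96, 8.35, 3.47 and 6.27 RPM in female TRAP against 1.24 to 2.01 and 2.17 to 4.30 RPM in total mRNA. The 5 male TRAP libraries had the same order for CG14075 as for Akh. Smaller interactions of the same sign were found for records of raptor, a subunit of the TOR kinase complex (1.41 ± 0.15), Cyp4d2, a cytochrome P450 (1.497 ± 0.19), meng, a kinase (1.08 ± 0.11), and Tm1, a tropomyosin (0.93 ± 0.07). The records of raptor and Cyp4d2 overlap antisense genes and are uncertain.

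In the other direction a sex difference in total mRNA was much smaller in TRAP. A record of Mical, an enzyme that oxidises actin downstream of plexins (3R, 10018824 to 10019435), had 37.0 to 41.7 RPM in male total and 1.04 to 1.73 RPM in female total mRNA. In TRAP it had 53.5, 56.5, 75.7, 58.6 and 54.4 RPM in males and 25.8, 49.9, 54.2 and 51.7 RPM in females, an interaction of -4.27 ± 0.31 (adjusted p = 2.3e-07). Dgk, a diacylglycerol kinase, had a record (2R, 7843013 to 7843915) with 6.86, 6.83, 9.76, 7.86 and 5.96 RPM in male TRAP and 1.52, 2.67, 3.02 and 2.64 RPM in female TRAP, against 20.4 to 27.8 and 0.21 to 0.562 RPM in total mRNA. This Dgk record passed the filter through the males alone, so its values are a description. Rpn13R, a relative of a proteasomal ubiquitin receptor, had 23.3 to 36.4 RPM in male TRAP and 8.85 to 20.5 RPM in female TRAP, while female total mRNA held only 0.595 to 1.10 RPM. A record of Lasp, an actin-binding LIM protein, shares its coordinates with CG43954 and is uncertain.

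**Figure D5:**
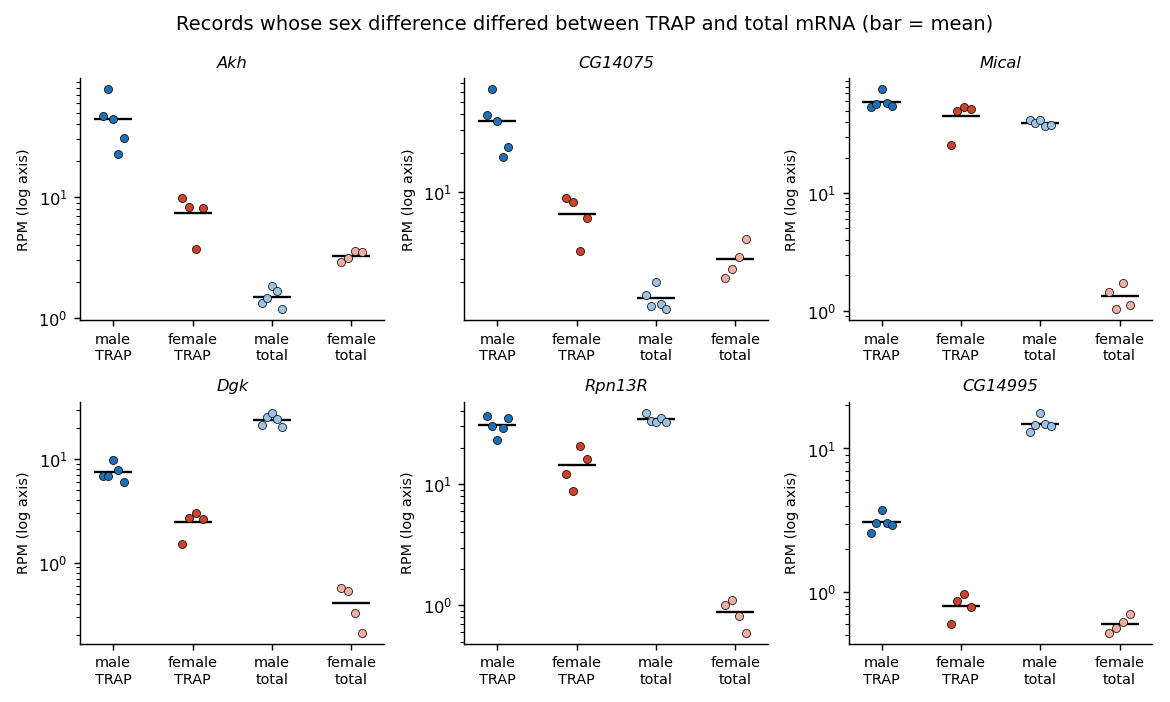
RPM (log axis) of the records of Akh, CG14075, Mical, Dgk, Rpn13R and CG14995 in each library of the 4 groups; points are libraries and bars are means. For Akh and CG14075 the male libraries were higher in TRAP and the female libraries higher in total mRNA, while for Mical, Dgk, Rpn13R and CG14995 the gap between the sexes was wide in total mRNA and narrower in TRAP. The records of Dgk and CG14995 passed the filter through the males alone.

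By chromosome, 893 of 1513 X-linked genes (59%) that passed in both sexes were called higher in females and 194 (12.8%) higher in males, against 46.8 to 51.1% and 19.1 to 21% on the 4 large autosomal arms. Of the 81 genes on the small chromosome 4 that passed in both sexes, 56 (69.1%) were called higher in females and 2 (2.47%) higher in males, with a median of -0.38. All 12 tested genes of the Y chromosome passed through the males alone.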

How the data were processed

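TRAP and total mRNA of 48 hr APF pupae were sequenced from directional libraries. The authors aligned reads to dm6 with STAR 2.7.2a, kept uniquely mapped reads with SAMtools 1.2 and deposited raw counts per exon record from FeatureCounts, without normalization. The strand setting and annotation release were not given in the sources used here, so records overlapping another gene are called uncertain. Gene sums can include such records, among them the sums of msl-3, grk, ab, RpL28, RpL10Ab and Fbp2, and are then uncertain to that extent. Coordinates are dm6, 1-based, and 98.9% of records matched an exon of the BDGP6 annotation. RPM was computed over all exon records for a record and over the summed non-overlapping records for a gene. The filter at 2 CPM used plain library totals, and the other CPM values were TMM-normalized.

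Records with over 2 CPM in every library of at least 1 sex were tested with the edgeR 4.0.16 exact test after TMM, with tagwise dispersions and Benjamini-Hochberg adjustment over all tested records (threshold 0.2). Gene sums and the interaction of sex by fraction were tested with edgeR's quasi-likelihood F test, and exon usage with diffSpliceDGE, in R 4.3.3. SE values are from the spread of log2(CPM + 0.5) between libraries. Figures used matplotlib 3.10.9. Scripts were checked on simulated counts. Named genes were a fixed set (Akh, dsx, elav, en, fru, lncRNA:roX1, lncRNA:roX2, Mhc, msl-2, repo, RpL10Ab, Sxl, tra, tra2), the 12 largest per direction without overlap of libraries and with at least 5 CPM, the 8 most abundant of 1 sex alone, the 8 largest per direction at least 2 times higher in TRAP than in total mRNA, the 6 smallest interaction p-values per direction, the 10 smallest usage p-values, and up to 4 called members and 1 uncalled member of each list. The members, lists and tests were chosen with earlier results of these data known. A deposited table of RPM for the same libraries was not used.

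Replicate libraries differed well beyond counting noise. Nothing in the labels gives a sequencing batch, and p-values measure the spread between these pooled samples. Same-numbered male and female TRAP libraries deviated together across 7377 genes (r = 0.266, 0.344 and 0.163 for replicates 2, 3 and 5, across genes, which are not independent), so fits with the replicate number as a block were compared. These fits held replicates 2, 3 and 5 of each sex alone and used quasi-likelihood fits, also for records. TRAP and total libraries with the same number came from 1 lysate (r = -0.327 to 0.555 over 9 pairs), and the interaction was also fitted with the lysate as a block. Alternatives were other scalings, filters, thresholds, DESeq2 1.42.0, distinct coordinates, and each library left out.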

Additional observations from a re-analysis of the deposited data

Results flagged for a closer look

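In 29 of 354 groups of values 1 library lay apart from the rest of its group, where chance gives about 1 in 20. Female TRAP replicate 2 was apart for the summed dpr and DIP list (1414 RPM), the glial list (677.8 RPM), msl-2 (25.42 RPM), lncRNA:roX1 (256.6 RPM, and 144.0 RPM for its record), elav (662.5 RPM), kl-2 (0.2044 RPM), ORY (0.06814 RPM), nrv3 (1939 RPM), Snap25 (102.0 RPM), Syn (139.4 RPM), DIP-alpha (272.1 RPM) and the Mical record (25.78 RPM). Female TRAP replicate 3 was apart for aly (0.06894 RPM), RpL28 (1657 RPM), Acp65Aa (135.2 RPM), Cpr30F (90.18 RPM) and CG34205 (34.53 RPM). Female TRAP replicate 4 was apart for ARY (0.04488 RPM), gcm (0.4937 RPM) and CG4631 (5.814 RPM), and female TRAP replicate 5 for tra (23.83 RPM) and fzo (0.477 RPM). Among males, replicate 1 was apart for bgcn (24.17 RPM), replicate 3 for Mlp60A (904.2 RPM), Nhe2 (5.666 RPM) and Mical (75.72 RPM), and replicate 6 for ab (155.1 RPM) and CG13003 (4.082 RPM). The values of aly, ARY and ORY rest on very few counts, with 0 RPM in the other female TRAP libraries.

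The sex difference differed between TRAP and total mRNA, by the interaction over 18 libraries with edgeR's quasi-likelihood test, for the 12 records named by that test. On the log2 scale it was 3.93 for Akh, 3.63 for CG14075, 0.93 for Tm1, 1.41 for raptor, 1.497 for Cyp4d2, 1.08 for meng, -4.27 for Mical, -2.10 for Lasp and -2.10 for CG43954, which share 1 record, -2.47 for CG14995, -4.05 for Dgk and -3.94 for Rpn13R. For gene sums it was 0.93 for fru, 1.09 for dsx, 1.04 for Sxl, 0.72 for tra, 1.00 for lncRNA:roX2, 0.41 for en, 0.75 for elav, 0.88 for repo, 0.78 for Mhc, 4.00 for Akh and 0.51 for RpL10Ab. The median over all genes was 0.47, and the values of fru, tra, lncRNA:roX2, en, elav and RpL10Ab did not pass with RLE size factors. The records of Dgk and CG14995 and the sum of lncRNA:roX2 passed the filter through the males alone.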

How the results depend on the processing

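Of 213 single genes and records, 171 kept their call under every alternative run, as did 24 of 40 list counts within 1.5 times. Leaving out each library in turn gave 4126 to 4512 genes with a record higher in males and 2051 to 3489 in females (2030 to 2372 and 1704 to 3215 for records passing in both sexes), and 55 to 150 genes with both. Gene sums gave 3680 to 4414 and 2986 to 4911 (1585 to 2237 and 2760 to 4632), the interaction 5644 to 6847 and 1046 to 1487, and exon usage 573 to 801.

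Genes with a record higher in males numbered 2922 at a 2-fold minimum, 6784 without a filter, 2767 with the filter at 60% of libraries and 2129 with the filter in both sexes. In females there were 1790 at 0.05, 266 at a 2-fold minimum and 4589 with distinct coordinates. For records passing in both sexes these were 804 in males at 2-fold, and in females 3597 with DESeq2, 1505 at 0.05, 159 at 2-fold and 4161 with distinct coordinates. Genes with both directions numbered 210 with DESeq2, 34 at 0.05, 2 at 2-fold, 182 with distinct coordinates, 313 without a filter, 66 with the 60% filter and 170 with the replicate block. Gene sums gave in females 3177 with TMM factors from genes passing in both sexes and 2911 with that filter, and of those passing in both sexes 2944, 2544 without a filter and 2911; in males 5984 without a filter and 2249 with the filter in both sexes. The interaction had 2597, 743, 2372 and 3243 female values under DESeq2, 0.05, RLE and TMM within fractions, and 2000, 1670 and 390 male values under DESeq2, RLE and TMM within fractions. Exon usage had 428 by Simes and 401 with the filter in both sexes.

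Signs reversed for msl-2 (0.0534 with TMM from genes passing in both sexes, 0.0647 without a filter, 0.0533 with the filter in both sexes, and -0.222 to 0.119 when single libraries were left out), fru (0.0133 without a filter), elav (-0.477 to 0.0477 when single libraries were left out) and DIP-alpha (-0.894 to 0.377). They also reversed with the replicate block for asRNA:CR44137 (0.026) and en (-0.00205), and in the interaction for en (-0.0102 DESeq2, -0.00399 RLE, -0.178 within fractions), RpL10Ab (-0.0828 within fractions) and lncRNA:roX1 (-0.858 to 0.477 when single libraries were left out). None of the reversed values was called, and the cause was not tested. Apart from RpL28, Cpr76Bc and the genes with both directions, the replicate block fit, which also used fewer libraries, changed no call or count by over 1.5 times. Records of a few RPM or less rest on few counts, and records below the filter entered no test across records.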
